A study of Drosophila melanogaster with 3 samples.

Results

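Of 4482 peaks that an Ets21C-eGFP chromatin immunoprecipitation gave on the main chromosome arms of Drosophila melanogaster, 606 (13.5%) had their summit, the base of highest signal, in an intron of a long gene. A peak was counted here when its summit lay more than 500 bp from every annotated transcription start site (TSS), inside a protein-coding gene and in no exon, and when the longest protein-coding gene over it spanned 50 kb or more. Among these peaks the rule used position alone, and sequence was not part of the choice. The peaks themselves are those of the optimal list, which was selected for agreement among the replicates. Peak height and presence in single replicates are therefore not independent of that list. The 606 peaks formed 596 separate regions once overlapping peaks were merged.

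The samples were whole white prepupae of a transgenic line, labelled strain d.ets6-GFP, that stably expresses Ets21C with green fluorescent protein at its C-terminus. Males and females were pooled, fragments were 200 to 800 bp in size, and an antibody against GFP was used. There were 3 biological replicates of this single group, and no untagged or control library was analysed here. A whole animal mixes many tissues, so a peak does not say in which cells the factor sat.

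Ets21C belongs to the ETS family of transcription factors, whose DNA-binding domain recognises sites built around GGAA. In flies it is known as a stress-responsive factor that acts with the JNK pathway and AP-1, in wound repair, regeneration and tumour growth. Long introns of developmental genes often hold enhancers, short stretches that transcription factors bind to set where and when a gene is used. At the white prepupa stage a pulse of the steroid hormone ecdysone starts metamorphosis, and several of the genes it controls, among them Eip75B and Hr4, are long genes with large first introns.

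The DNA at the 6 highest peaks that every replicate's top list held, all on 2L, 3L, 3R or X, shows what the sites look like. Each window reaches 100 bases to either side of the summit, on the plus strand of the RefSeq genome of Release 6, with capitals marking the ETS core GGAAG, the GATA-type word GATAA and the word CACTG, each on either strand.
ush, chr2L:480989-481189: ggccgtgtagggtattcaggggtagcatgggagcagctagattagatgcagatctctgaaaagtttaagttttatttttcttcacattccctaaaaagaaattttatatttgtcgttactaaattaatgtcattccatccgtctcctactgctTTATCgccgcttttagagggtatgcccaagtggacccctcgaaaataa
Eip75B, chr3L:18011806-18012006: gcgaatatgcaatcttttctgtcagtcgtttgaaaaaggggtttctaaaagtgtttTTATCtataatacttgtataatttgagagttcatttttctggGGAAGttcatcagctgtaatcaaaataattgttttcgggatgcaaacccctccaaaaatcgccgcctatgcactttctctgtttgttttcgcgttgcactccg
CG32264, chr3L:3785124-3785324: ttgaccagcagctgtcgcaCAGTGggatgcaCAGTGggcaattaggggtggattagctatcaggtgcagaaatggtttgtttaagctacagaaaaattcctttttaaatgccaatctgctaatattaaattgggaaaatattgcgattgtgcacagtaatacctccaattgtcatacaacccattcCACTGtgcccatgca
Tlk, chrX:3742127-3742327: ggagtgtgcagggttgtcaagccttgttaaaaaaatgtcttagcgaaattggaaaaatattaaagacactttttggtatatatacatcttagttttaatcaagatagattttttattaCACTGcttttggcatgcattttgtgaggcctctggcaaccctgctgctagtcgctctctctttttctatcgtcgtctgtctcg
Hr4, chrX:1951803-1952003: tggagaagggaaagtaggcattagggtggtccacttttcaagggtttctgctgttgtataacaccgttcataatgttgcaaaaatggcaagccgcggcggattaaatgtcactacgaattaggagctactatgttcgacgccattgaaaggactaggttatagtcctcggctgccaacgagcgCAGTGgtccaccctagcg
pum, chr3R:9229164-9229364: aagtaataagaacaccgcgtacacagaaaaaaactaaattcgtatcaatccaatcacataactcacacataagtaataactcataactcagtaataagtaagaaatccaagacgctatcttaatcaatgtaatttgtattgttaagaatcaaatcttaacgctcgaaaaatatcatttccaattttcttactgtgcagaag
The ETS core occurred in 1 of the 6 windows, at Eip75B. The GATA-type word occurred in 2 of them, at ush and Eip75B, and CACTG in 3, at CG32264, Tlk and Hr4. CACTG was singled out after the values were seen, for a reason given with the searched words. All of the windows except that of Hr4 (48.8% G and C) held between 29.9% and 41.8% G and C. Each of the other 5 held a run of 8 or more bases of A and T alone, against a longest run of 7 in the Hr4 window.

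The highest peak of the set stood in the first intron of ush, which encodes a zinc-finger cofactor of GATA factors. Its signal in the optimal list was 2923, the fourth highest of that list. Divided by the median signal of each replicate's own top list (the 4505 peaks of highest signal, as many as the optimal list holds), it stood at 20.3, 12.8 and 14.3 in replicates 1, 2 and 3. It was thus far above the middle of the list in each replicate. The peak lay 4869 bp downstream of the nearest upstream start of ush, in an intron of 13185 bp.

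The second highest peak lay in Eip75B, which encodes a nuclear receptor induced by ecdysone, with a signal of 2088 and heights of 12.8, 9.29 and 10.8 in replicates 1, 2 and 3. The third, in CG32264, had a signal of 1303 and stood at 9.10, 5.91 and 6.27. Hr4, another ecdysone-induced nuclear receptor, held a high pair in a 10387 bp first intron, which also held lower peaks of signal 363 and 351. The higher of the pair stood at 6.35, 4.46 and 7.92 times the median of the replicate lists. The other of the pair stood at 5.77, 3.78 and 6.24. By this ratio both peaks of the pair were lowest in replicate 2, as was each other peak whose heights are given in this paragraph. Tlk, a Tousled-like kinase of chromatin assembly, held one at 7.52, 4.83 and 7.31. The peak in pum, a translational repressor, stood at 7.52, 4.85 and 6.97. The one in mub, a KH-domain RNA-binding protein, stood at 9.87, 5.15 and 5.85, highest in replicate 1.

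**Figure D1:**
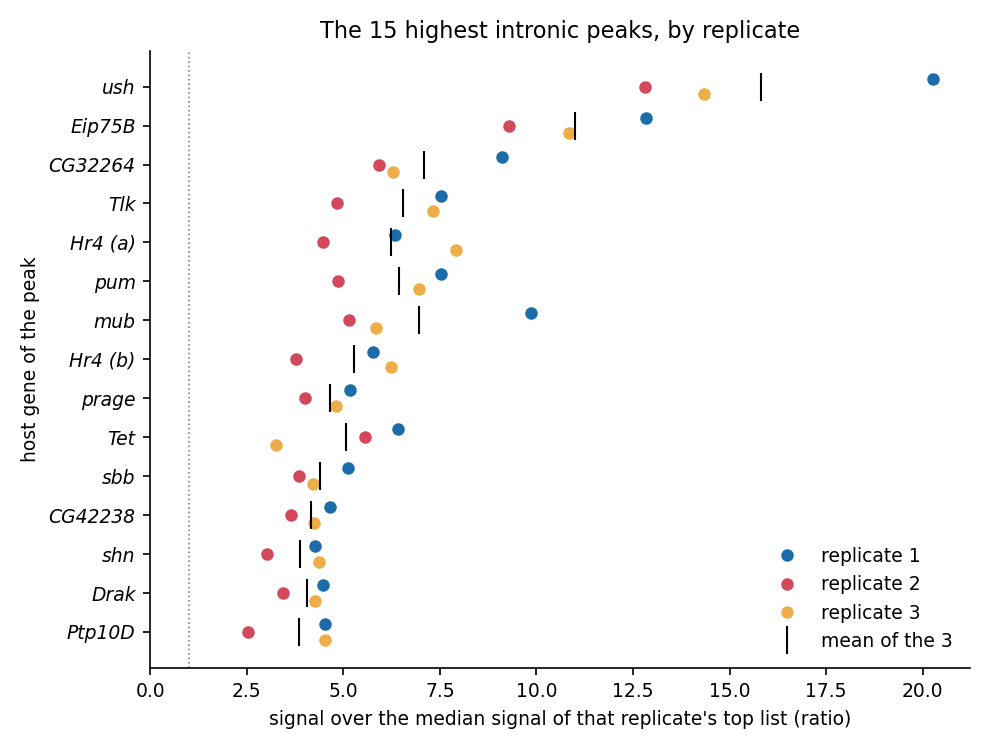
Height of the 15 highest peaks in introns of long genes that lay in the top lists of all 3 replicates. The horizontal axis gives the signal as a ratio to the median signal of the top list of the same replicate (dotted line at 1), points are replicates and the tick is their mean; every point lies above 2.5, and the ush peak leads in each replicate.

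Most of these 15 peaks sat in a first intron. Exceptions were the peaks in pum and in Tet, a gene that encodes the fly member of the TET dioxygenase family. The Tet peak lay 54958 bp inside its gene and stood at 6.41, 5.56 and 3.26 in replicates 1, 2 and 3. The lowest of the 15, in the receptor tyrosine phosphatase gene Ptp10D, stood at 4.52, 2.53 and 4.53. Among all 606 peaks, 323 (53.3%) lay in a first intron, while first introns made up 32.3% of long-intron bases.

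Across the set, heights were modest. Signals in the optimal list ranged from 109 to 2923 with a median of 170, against a median of 190 for the 1190 peaks in introns of shorter genes. Of the 606 peaks, 259 (42.7%) lay above the median signal of the optimal list, against a background of 49.7% of all optimal peaks and 49.1% of those in shorter introns. Within the replicate lists, the median signal of the peaks found in that top list was 48.8, 62.3 and 95.7 in replicates 1, 2 and 3, against 56.3, 67.1 and 102.8 for peaks in shorter introns. The ratio was 0.908 ± 0.0357 (SD, n = 3 replicates) and lay below 1 in each replicate. An exact two-sided sign-flip permutation test over the replicates gave p = 0.25, which is the smallest value that 3 replicates allow. No comparison over these replicates can therefore reach 0.05, and the direction in each replicate is what the data give. Signal values are the authors' own and were compared only within a list.

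Long introns held fewer peaks per base than shorter introns. They cover 24.8 Mb, or 18.5% of the arms, and held 24.5 optimal peaks per Mb, against 44.4 per Mb in introns of shorter genes. In the top lists of replicates 1, 2 and 3 the density in long introns was 31.7, 22.4 and 20.2 peaks per Mb, against 45.9, 41.5 and 38.2 per Mb in shorter introns. The ratio was 0.586 ± 0.0904 (SD, n = 3) and lay below 1 in every replicate (exact sign-flip permutation p = 0.25). Repeat-masked bases made up 25.9% of long introns and 20.3% of shorter ones. With masked summits and bases left out, an alternative chosen after seeing the data, the ratio was 0.626.

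Replicate 1 stood apart from the others in where its high peaks lay. Its top list placed 785 peaks in long introns, against 556 in replicate 2 and 500 in replicate 3, and placed 26.1% of its peaks near a TSS, against 44.0% and 49.0% there. Long introns took 17.5%, 12.4% and 11.2% of the top-list summits of replicates 1, 2 and 3, against 22.0%, 17.1% and 16.1% of the summits in the rest of each list. The difference was −4.68 ± 0.217 percentage points (SD, n = 3; exact sign-flip permutation p = 0.25) and ran the same way in each replicate, so the strongest calls held fewer long-intron sites than the weak calls and background below them. Without replicate 1 the difference was −4.79 points and the density ratio 0.534.

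The set was found again in single replicates about as often as peaks in shorter introns. The optimal list was derived from these same replicates, so recovery in them is partly built in, and only the comparison between kinds of peak is informative. Of the 606 peaks, 308 (50.8%) lay within 100 bp of a top-list summit in each of the 3 replicates, against a background of 45.7% of all optimal peaks and 47.6% of those in shorter introns. The 95% Clopper-Pearson intervals, which cover counting error only, were 46.8% to 54.9% in long introns and 44.8% to 50.5% in shorter ones. By replicate, 80.9%, 77.6% and 73.4% of the 606 were found in the top lists of replicates 1, 2 and 3, against 69.9%, 79.4% and 75% of shorter-intron peaks. The surplus of the long introns lay in replicate 1 alone, and without replicate 1 the difference in recovery was −2.54 percentage points in place of 3.18. Only 12 of the 606 were in no top list.

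Within long introns, density was lower farther from a start site. The optimal list held 69.8 peaks per Mb of long intron at 0.5 to 1 kb from the nearest TSS and 7.80 per Mb beyond 20 kb. At 0.5 to 1 kb the replicates gave 68.7, 72.1 and 59.5 per Mb, and beyond 20 kb they gave 12.9, 6.13 and 6.13. The ranges of the nearest and farthest bins did not overlap. The farthest bin covers 7.82 Mb of long intron. How much of it lies in the few very long genes without a peak, named below, was not computed. At 10 to 20 kb the optimal list had 24.9 peaks per Mb in long introns and 25.3 per Mb in shorter ones, whereas at 1 to 2 kb it had 41.9 and 58.6. The median summit lay 5596 bp from a TSS, against 2165 bp for shorter introns, so the 2 kinds of intron offer sequence at different distances.

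**Figure D2:**
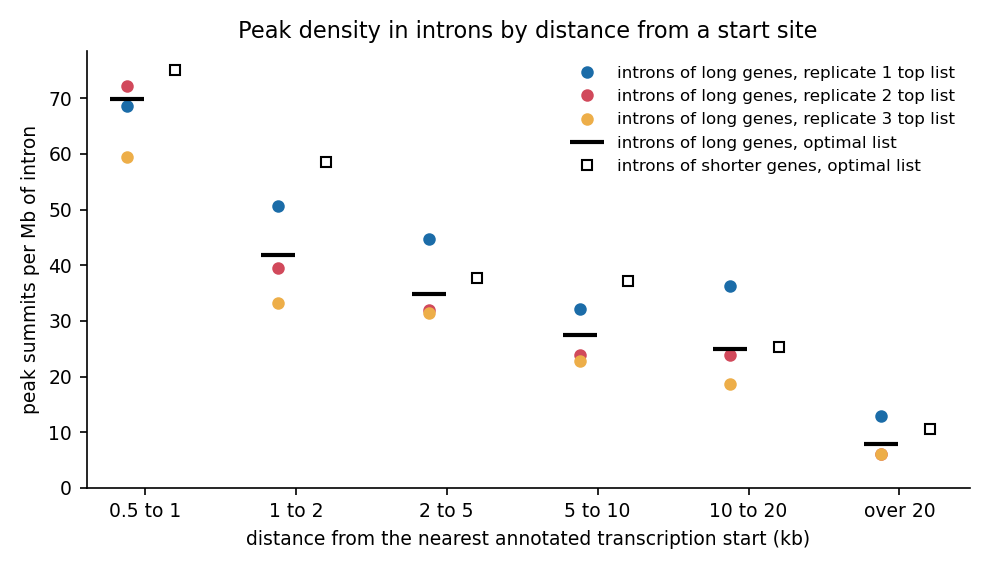
Peak summits per Mb of intron by distance from the nearest annotated transcription start. Coloured points are the 3 replicates' top lists and black bars the optimal list in introns of long genes, and open squares are the optimal list in introns of shorter genes; density in long introns is 69.8 per Mb in the nearest bin and 7.80 per Mb in the farthest.

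Density was also lower in introns of hosts of larger span. Introns of genes of 50 to 75 kb held 34.7 optimal peaks per Mb and those of genes of 150 kb or more held 7.79 per Mb. The replicates gave 42.3, 31.8 and 29.9 per Mb in the first of these bins and 12.1, 6.44 and 6.44 in the last. Even so, 10 of the 22 genes of 150 kb or more held a peak. The 2 longest genes without one, Myo81F (1966 kb) and Pzl (709 kb), have introns masked as repeats over 40.9% and 35.2% of their bases. Introns of genes of 150 kb or more cover 6.67 Mb, and a few genes without a peak make up much of it. Myo81F, Pzl, lovit, CG17684 and DIP-lambda have 1953625, 701826, 429441, 389553 and 376291 bp of intron there. The low density of this bin thus rests in part on these genes, and no density without them was computed. At the threshold itself, ab (50.4 kb, 3 peaks) and ftz-f1 (50.7 kb, 2 peaks) fell inside, while Dyrk2 (49.6 kb, 1 peak) and CG42673 (49.5 kb, 1 peak) fell outside. By arm, long introns held 31.5 peaks per Mb on 2L, 31.4 on X, 24.5 on 2R, 21.2 on 3L and 18.2 on 3R, and none on chromosome 4, where long introns cover only 0.0228 Mb. Myo81F and Pzl lie on 3R (6.76 Mb of long intron), lovit on 3L (5.15 Mb), and CG17684 and DIP-lambda on 2R (4.25 Mb). These genes without a peak lower the densities of their arms, and the arms were not compared without them.

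The peaks were gathered in a part of the long genes. Of the 307 long protein-coding genes, 162 (52.8%) held at least 1 peak, 43 held exactly 1 and 145 held none. Each peak was credited to the longest gene over it alone, so 7 long genes that lie wholly under longer genes could be credited with none. With every long gene over a summit counted, an alternative chosen after seeing the data, 167 of the 307 (54.4%) held a peak, 4 of those 7 among them. The 49 genes with 5 or more accounted for 366 of the 606 peaks (60.4%). The 20 genes with the most held 200 (33.0%), in introns that cover 7.21% of long-intron bases. Genes with and without a peak were of like span, with medians of 75 kb and 74 kb, and had like shares of masked intron, 21.1% and 21.9%. The intron sequence credited to them differed more, with medians of 61.2 kb and 53.8 kb. The top lists of replicates 1, 2 and 3 touched 216, 163 and 149 of the 307 genes, 136 of them in all 3 lists, and 79 genes were touched by none. Across genes, counts per gene in the replicate lists gave a Spearman rank correlation of 0.755 between replicates 1 and 2, 0.735 between 1 and 3 and 0.910 between 2 and 3. These describe genes that share libraries and a span, and genes are not independent replicates.

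Genes with an intronic peak more often also had one at a start site. An optimal peak lay within 500 bp of a TSS of 59 of the 162 genes with an intronic peak (36.4%) and of 14 of the 145 without one (9.66%). Over all coding genes, of any span, the share was 15.2%, which is not a like background for long genes. Of the 20 genes with the most intronic peaks, kirre, Tet, Snoo, ush, Tlk, heca, fz, fz2, SKIP and CG32264 had none at a start.

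The gene with the most peaks was kirre (chrX:2740384-3134532), which encodes an immunoglobulin-family adhesion protein of muscle founder cells. It held 18 optimal peaks, and 22, 16 and 16 top-list peaks in replicates 1, 2 and 3. Its introns are long, and this comes to 5.40 peaks per 100 kb of intron. CG1677 followed with 17 optimal peaks, and 15, 13 and 16 in the replicates. Only 1 of its 4 annotated transcripts spans 50 kb, so its place in the set rests on that transcript. sbb, which encodes the corepressor Scribbler (Brakeless), held 15 peaks in 79.1 kb, or 26.8 per 100 kb of intron, the highest of the 20.

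Several of the other hosts act in bone morphogenetic protein (BMP), Wnt and JAK/STAT signalling. shn, which encodes the zinc-finger effector Schnurri of the BMP ligand Dpp, held 11 optimal peaks and 12, 9 and 9 in the replicates, with 1 of 6 transcripts past 50 kb. Snoo, a SMAD-interacting member of the Ski and Sno family, held 10, and tkv, a type I receptor of Dpp, held 7. The Wnt receptor genes fz and fz2 held 8 each, fz with 11, 8 and 5 in the replicates and fz2 with 7, 8 and 7. Ptp61F, a tyrosine phosphatase that restrains JAK/STAT signalling, held 10, with 12, 8 and 9 in the replicates. Counts for fz2 and shn lay close together across replicates, while those for fz ranged over more than a factor of 2.

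**Figure D3:**
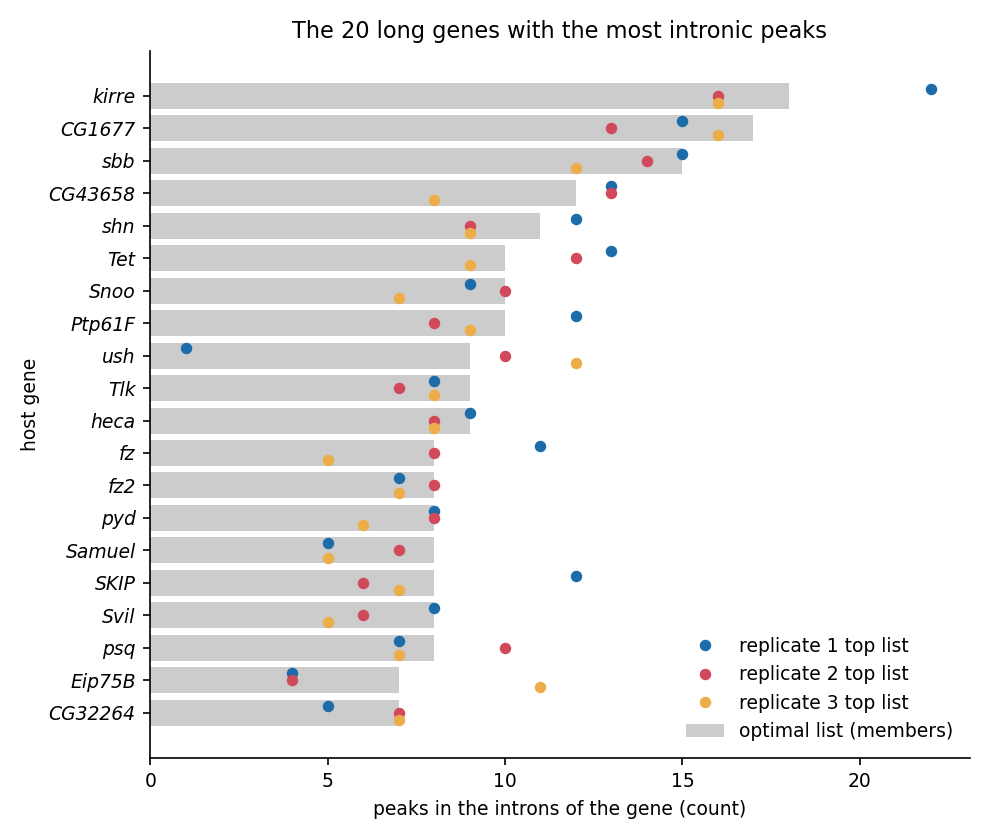
Intronic peaks in the 20 long genes with the most of them. Grey bars count optimal peaks and points count top-list peaks of each replicate; most points lie near their bar, and ush is the gene where replicate 1 (1 peak) departs farthest from replicates 2 and 3 (10 and 12).

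At ush the replicates disagreed beyond the single high peak. Its introns held 9 optimal peaks, and 1, 10 and 12 top-list peaks in replicates 1, 2 and 3. Of the 9, the 8 lower ones had no partner even in the whole list of replicate 1, while the highest was that replicate's ush call at 20.3 times the median. The second highest ush peak stood at 1.82 in replicate 2 and 2.32 in replicate 3. ush (chr2L:476220-540560) is the neighbour of Ets21C itself (chr2L:544925-552923), 4364 bp away, and its peaks lay 17.8 to 63.8 kb from the Ets21C gene. How much sequence around Ets21C the transgene carries is not given in the sources used here, and its part in these peaks was not tested. Leaving ush out, 51.4% of the remaining 597 peaks were found again in every replicate.

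Among long genes of the ecdysone response, 8 of 9 held a peak, against 52.8% of all long genes. In the replicate lists 77.8%, 88.9% and 77.8% of the 9 did, a mean of 81.5% ± 6.42, against 57.3% ± 11.5 for all long genes (SD, n = 3 each). Eip75B held 7 optimal peaks and 4, 4 and 11 in the replicates, and Hr4 held 6 and 6, 7 and 6. EcR, the hormone's receptor, held 5, the highest at a signal of 200, and 4, 5 and 3 in the replicates. Eip74EF, an ETS factor induced by the hormone, held 4, none of which was in the top list of replicate 1. br, which encodes the Broad zinc-finger factors, was the one of the 9 with none, but it lies under a longer gene and could not be credited with a peak under the rule. Counted over its whole span of 89.7 kb instead, it still held 0 of the 606 peaks and 0 long-intron peaks of each top list. With only peaks kept that lay in the top lists of replicates 1 and 3, leaving out replicate 2, the share of the 9 was 55.6%. For all long genes it was then 43.0%. The gene groups were drawn up with earlier results of these data known, so their counts are descriptions with no test.

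Long genes for developmental transcription factors gave 18 of 21 (85.7%), and 81.0%, 95.2% and 95.2% in the replicates. Besides sbb and shn, the BTB-domain factor gene psq held 8 optimal peaks and 7, 10 and 7 in the replicates, and the zinc-finger gene jing held 7 and 9, 7 and 6. pros, which encodes the neuronal homeodomain factor Prospero, held none in any list. bun held none in the optimal list, and 0, 2 and 1 in the replicates. Signalling genes gave 9 of 12 (75%), and 83.3%, 83.3% and 75% in the replicates. ths, which encodes an FGF ligand, held none in the optimal list and 2, 1 and 0 in the replicates.

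Genes of the differentiated nervous system and of muscle gave the lowest shares. Of 16 long genes for ion channels and neurotransmitter receptors, 1 held a peak, nAChRalpha6, a subunit of the acetylcholine receptor. In the replicates 37.5%, 6.25% and 0% of the 16 did, so the group's share in replicate 1 was far from the others. The group's share was 0% among peaks kept without replicate 1 or without replicate 2, against 42.3% and 43.0% of all long genes. Sh, the Shaker potassium channel gene of 139 kb, held none in any list. The long channel genes SLO2 and Elk, listed with other capitals, were left out of the 16. Neither held an optimal peak, and SLO2 held 3, 0 and 0 top-list peaks in the replicates. Of 9 cytoskeletal and muscle genes 2 held a peak, shot and Zasp52, and 44.4%, 33.3% and 22.2% did in the replicates. The share of the 9 was 11.1% without replicate 1 and 0% among peaks above the median signal, so it rests on few and low peaks. For all long genes these shares were 42.3% and 34.2%. Of 38 adhesion, guidance and synapse genes 16 did (42.1%), with 68.4%, 42.1% and 42.1% in the replicates. Apart from kirre these included the cell adhesion genes ed (7 peaks) and Fas3 (5) and the guidance gene Sema1a (5). dpr6 (165 kb) held none in the optimal list and 2, 0 and 0 in the replicates.

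RNA-binding genes and regulators of cyclic nucleotides, GTPases and kinases lay between these. Of 13 long RNA-binding genes 8 held a peak (61.5%), with 76.9%, 69.2% and 53.8% in the replicates. pum and shep held 5 each, and Syp held 4, none of them in the top list of replicate 1. bru3, of 281 kb, and Rbp6 held none in the optimal list, but 4 and 3 in the top list of replicate 1. Of 10 regulators 7 held a peak (70.0%), and 10, 7 and 6 of the 10 did in the replicates. Gene symbols were matched letter for letter, so the long gene RapGAP1, listed with other capitals, was left out of the 10. RapGAP1 held 6 optimal peaks, and 5, 5 and 5 in the replicates. Without replicates 1, 2 and 3 in turn the share of the 10 was 40%, 40% and 60%, against 42.3%, 43.0% and 43.0% of all long genes. Among peaks above the median signal it was 30%, against 34.2% of all long genes. Drak, a death-associated protein kinase relative, and cv-c held 4 each, and dnc, the cyclic AMP phosphodiesterase Dunce, held 3.

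**Figure D4:**
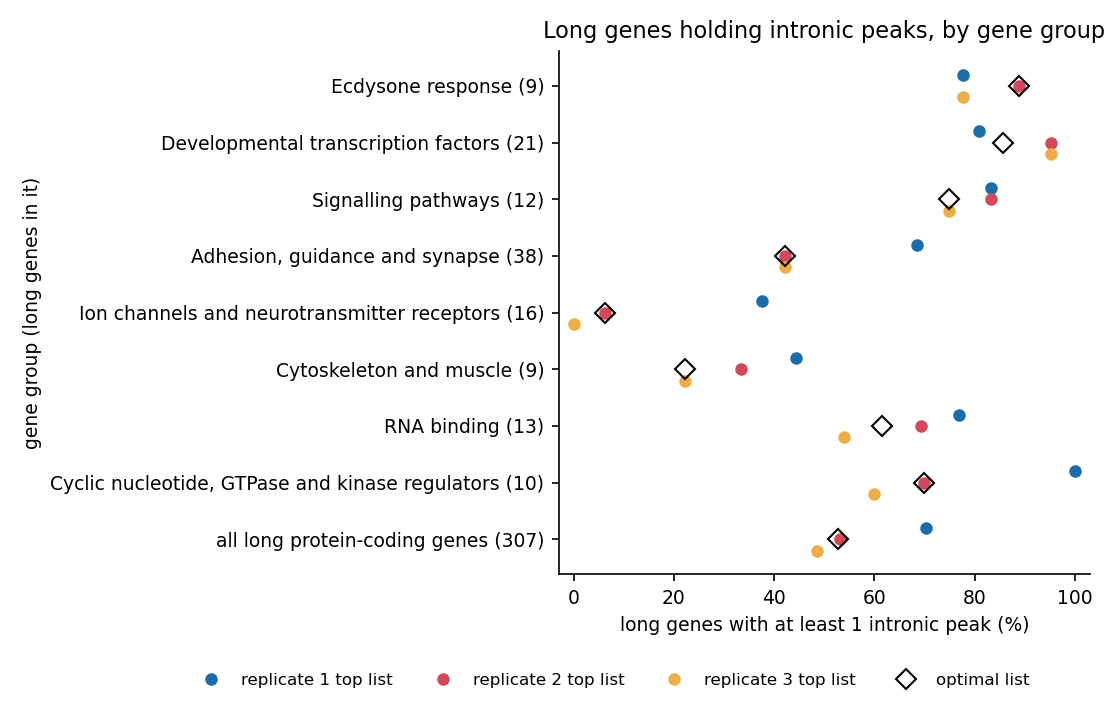
Share of long genes with at least 1 intronic peak, by gene group, with the number of long genes of the group in brackets. Points are the 3 replicates' top lists and diamonds the optimal list; ecdysone, developmental and signalling genes lie at 75% or more in every list, against 48.5% to 70.4% for all long genes, and ion channel genes range from 0% to 37.5%.

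The DNA under the peaks was poor in G and C. Within 50 bp of the summits that lay in the top lists of replicates 1, 2 and 3, G and C made up 31.6%, 31.1% and 31.9% of bases, against 42.6%, 42.9% and 42.9% in flanks centred 500 bp to either side. The difference was −11.3 ± 0.426 percentage points (SD, n = 3; exact sign-flip permutation p = 0.25) and of one sign in every replicate. In the optimal list, 535 of the 606 peaks (88.3%) had less G and C than their flanks. Height made no visible difference, since the 100 highest averaged 31.4% and the 100 lowest 31.6%. Nor was the trough particular to long introns, with 31.8% at peaks in shorter introns, 32.0% at intergenic peaks and 33.2% at promoter peaks.

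**Figure D5:**
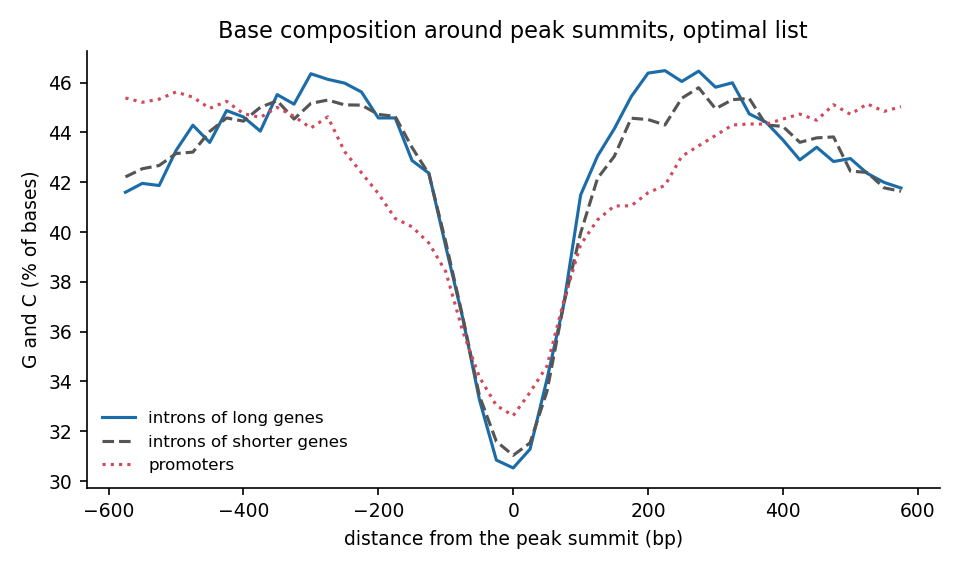
Share of G and C around the summits of optimal peaks, by distance from the summit. Lines are peaks in introns of long genes, in introns of shorter genes and at promoters; all 3 dip at the summit, and the intronic lines stand higher than the promoter line about 200 bp to either side.

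The ETS core was scarcer at the peaks than beside them. GGAAG occurred within 100 bp of the summit in 99 of the 606 peaks (16.3%), against 24.8% of flanks and 24.4% of 120682 windows that tile the long introns. In the replicates it occurred in 16.7%, 15.5% and 16.9% of the peaks in the top list, a mean of 16.4% ± 0.731, against 25.3% ± 0.535 of flanks (SD, n = 3 each; exact sign-flip permutation p = 0.25). The longer ETS words CCGGAAGT and CCGGAAGC occurred in none of the 606, which allows a share of up to 0.495%, and in 0.495% and 0.0825% of flanks, so that no difference was detectable for these 2 words. The letters of GGAAG are richer in G and C than the peaks are, and the part of base composition in their scarcity was not tested. Scarcity was not particular to ETS words. GGAAG was among 13 of 21 words not higher at the peaks in any replicate, while 5 were higher in all 3. The control word TGTGCGTG, for example, occurred in 0.825% of the peaks against 2.56% of flanks. Nor was it particular to long introns, as 17.8% of peaks in shorter introns and 18.3% of promoter peaks held GGAAG.

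Some words rich in A and T ran the other way. GATAA occurred in 40.1% of the peaks, 30.4% of flanks and 32.8% of long-intron windows, with 39.5% ± 0.449 of the peaks over the replicates (SD, n = 3). The longer GATA-type word AGATAAG did not share this, with 2.15% of the peaks and 2.23% of flanks. The homeodomain-type TAATTA occurred in 17.2% of the peaks against 12.8% of flanks, the forkhead-type TGTTTAC in 5.28% against 2.97%, and a run of 7 A in 32.3% against 22.1%. Each of these was higher in the peaks in all 3 replicates. GATAA and TAATTA were as common at other peaks, with 40.7% and 18.1% in shorter introns and 42.6% and 18.4% at promoters. TGTTTAC occurred in 4.45% of peaks in shorter introns and 5.70% of promoter peaks. The run of 7 A was less common there, at 28.1% and 22.7%. The AP-1-type word TGANTCA occurred in 5.12% of the peaks and 4.95% of flanks, with no common sign among replicates. The M1BP word GGTCACACT, not of this composition, occurred in 4 of the 606 (0.660%) against 0.0825% of flanks. Of 21 words compared, 5 were higher in the peaks in all 3 replicates, 13 were not higher in any and 3 differed in sign. TATCGATA, the DRE word that 5.42% of promoter peaks held, occurred in 1 of the 606.

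A search of all 8-letter words, made after the data were seen and so given without a test, brought up one that is not among the 21. Among 599 words held by 20 or more of the peaks, CACTGAGA had the highest ratio to long-intron windows. It occurred in 41 of the 606 (6.77%), against 0.413% of flanks and 0.660% of long-intron windows. In the top lists of replicates 1, 2 and 3, 6.62%, 5.04% and 5.40% of the long-intron peaks held it. It was no feature of long introns alone, occurring in 5.04% of peaks in shorter introns and 6.55% of intergenic peaks, and in 1.99% of promoter peaks. The 41 lay in 34 host genes, and their median signal was 165, against 170 for the others. Relatives of the word, among them CACTGTGC in 38 peaks (6.27%) and CACAGTGG in 34 (5.61%), were next in the same ranking.

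The word lay mostly to one side of the summit. In 40 of its 41 occurrences the summit lay on its 3′ side, at a median of 66 bp (quartiles 37 and 76 bp) from the middle of the word. A purine followed it in 38 of the 41, and an A stood at the second and at the third letter after it in 39 each. The 60 bases on the 3′ side held 27.8% G and C, against 48.3% in the 60 bases on the 5′ side, so the word stood at the edge of the A- and T-rich stretch. Of the 41 occurrences, 30 began on a repeat-masked base, against 24.3% of the summits of all 606 peaks. Whether the word belongs to a repeat family or to a factor's site was not tested, nor was its presence in a control. Only 1 of the 606 summits lay in an annotated transposable element, and such elements cover 7.76% of long-intron bases.

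The 4 highest peaks with the word on 2L, 3L, 3R and X are printed on the strand on which it reads CACTGAGA, which is plus for Snoo and Tet and minus for cv-c and rols, with that word in capitals.
Snoo, chr2L:7916408-7916608: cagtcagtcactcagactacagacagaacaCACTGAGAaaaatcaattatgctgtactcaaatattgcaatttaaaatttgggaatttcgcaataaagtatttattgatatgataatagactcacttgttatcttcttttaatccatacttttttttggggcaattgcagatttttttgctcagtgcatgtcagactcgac
cv-c, chr3R:14413491-14413691: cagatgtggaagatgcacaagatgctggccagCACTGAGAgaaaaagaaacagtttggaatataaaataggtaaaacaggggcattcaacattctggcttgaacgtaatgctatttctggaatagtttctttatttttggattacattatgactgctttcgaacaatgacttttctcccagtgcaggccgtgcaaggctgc
rols, chr3L:12053809-12054009: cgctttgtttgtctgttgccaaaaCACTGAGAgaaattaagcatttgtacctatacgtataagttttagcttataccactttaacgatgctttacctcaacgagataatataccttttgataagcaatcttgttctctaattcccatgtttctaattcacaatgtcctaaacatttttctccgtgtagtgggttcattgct
Tet, chr3L:2823065-2823265: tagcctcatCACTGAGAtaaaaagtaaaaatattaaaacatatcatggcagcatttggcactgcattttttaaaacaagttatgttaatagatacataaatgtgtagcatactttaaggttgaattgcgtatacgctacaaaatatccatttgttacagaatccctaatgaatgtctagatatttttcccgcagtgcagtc
Each replicate's top list held all 4. The Snoo peak stood at 4.57, 2.16 and 3.14 times the median of replicates 1, 2 and 3, and the rols peak at 2.92, 2.17 and 2.54. The far ends of some windows hold a reversed form of CACTG, in lower case here, beyond the summit. This arrangement, noticed in these windows, was counted over the set. CACTG on either strand occurred on both sides of the summit, within 120 bp, in 102 of the 606 peaks (16.8%), against 3.38% of flanks and 3.23% of long-intron windows. The inner distance between the starts of the copies had a median of 153 bp, with quartiles of 135 and 166 bp. In the top lists of replicates 1, 2 and 3 the share was 15.5%, 15.5% and 16.6%. It was 14.9% at peaks in shorter introns, 15.2% at intergenic peaks and 9.52% at promoter peaks, so the long introns shared it with other sites away from promoters.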

How the data were processed

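ChIP-seq peak lists of 3 biological replicates were used. Per the deposited sample notes, every replicate's list was made against a control, a pooled list was made from all 3 replicates, and the optimal list was derived from these by the irreproducible discovery rate. Which aligner and peak caller were used is not given in the sources here. Peak heights are the signal values the authors deposited. The lists hold no reads, so depth is unknown. The replicate lists held 30000, 28006 and 30000 peaks, weak calls and background included.

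Summits were placed against Ensembl release 115 genes, with transposable elements left out, and the Release 6 sequence of RefSeq. Coordinates are 1-based. Of 4505 optimal peaks, 23 lay off the main arms. Each peak was credited to the longest coding gene over it. Summits within 100 bp counted as shared. Differences were tested by an exact two-sided sign-flip permutation over replicates. Scripts used Python 3.11.15, numpy 2.4.6, pandas 2.3.3 and scipy 1.17.1, and recovered 10 of 10 values made into a toy annotation with peaks. Named genes were the 20 with the most peaks, hosts of the 15 highest peaks in all 3 top lists, up to 4 genes with most peaks and 2 longest without per gene group, and the genes at the span threshold and the longest without a peak. Peaks and lists were chosen with earlier results of these data known. Alternatives changed the span, the TSS distance, the top-list size, the peak threshold, the shared distance, the windows, the flanks and the replicates.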

Additional observations from a re-analysis of the deposited data

How the results depend on the processing

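The share difference, density ratio, height ratio and G and C difference kept their direction under every alternative run, with exact sign-flip permutation p = 0.25, or 0.5 with 2 replicates. The share of long genes with a peak was 46.5% at a 30 kb span, 34.2% among peaks above the list's median and 42.3% to 43.0% with one replicate left out. The surplus in recovery from all top lists was 7.88 points at a 100 kb span, 10.8 above the median and −2.54 to 7.36 with one replicate left out, negative without replicate 1. The cause of these moves was not tested. Shares of gene groups moved more, being of 9 to 38 genes at the 50 kb span. With one replicate left out, the ecdysone genes gave 55.6% to 77.8%, the regulators 40% to 60% and the cytoskeletal and muscle genes 11.1% to 22.2%. At a 30 kb span cytoskeletal and muscle genes gave 40.9%, above adhesion genes at 29.3%. At 100 kb the ecdysone, developmental, signalling and regulator groups gave 100%, adhesion genes 60%, and ion channel and cytoskeletal genes 0%. The groups were far smaller at that span, which only 83 coding genes reach. Eip75B, Ptp61F and Sh were then the only genes of the ecdysone, signalling and ion channel groups, so these shares say little about groups. All long genes gave 54.2% there. Above the list's median, adhesion genes gave 18.4%, regulators 30% and cytoskeletal genes 0%. Of the words, AGATAAG changed sign to 0.116 points at 30 kb, 0.725 at 100 kb, 0.205 within 50 bp, 0.0351 with flanks at 1000 bp, and −0.275 to 0.0977 with one replicate left out. TGANTCA fell to −0.215 with 2000 peaks, −0.407 above the median, and −0.169 to 0.372 with one replicate left out. CAGGTAG gave 0.204 at 30 kb, TTCNNNGAA −0.221 at 100 kb, AACCGGTT 0.162 with 2000 peaks, and CACGTG 0.141 and GCATGACG 0.00344 with flanks at 1000 bp. TGTTTAC kept a positive mean but was not higher in every replicate at 100 kb (0.864) or with flanks at 1000 bp (0.0440). The set held 948 peaks at 30 kb, and counting every long gene over a summit as host gave the share of genes as 54.4%. No paired analysis was possible because there is only 1 group. Depth could not be weighed, since the lists hold no reads.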
